A study of Mus musculus with 2 samples.

Results

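The 10 genes described here are Dpp4, Pi16, Cd55, Anxa3, Icam1, Ggt5, Cd34, Pdgfra, Pdgfrb and Thy1, markers by which fat progenitor cells are sorted or recognised. They were chosen by gene symbol from a table of 54532 genes, and each stood on 1 line of it. Transcript levels came from 2 mouse RNA sequencing libraries, 1 labelled as a Trappc9 knockout (KO) and 1 labelled wild type (WT), both titled as stem cells derived from fat of mice aged 3 to 4 weeks. The design text describes the abdominal fat pads of 3 KO and 3 WT mice, digested with collagenase, whereas the extraction label describes pads frozen whole. Which preparation was sequenced, whether mice were pooled, and the strain, sex and knockout allele were not stated by the labels. Since each genotype has a single library, nothing below was tested against the spread between animals, and no p-value is given.

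Adipocytes arise from fibroblast-like progenitors in the stroma of the fat pad. In mice, cells that carry DPP4 lie in the interstitium around the pad, also express Pi16, Cd55 and Anxa3, and can give rise to committed preadipocytes, which carry ICAM1 and express Ggt5. CD34, PDGFRA, PDGFRB and THY1 are shared more widely by stromal cells and were treated here as a set of their own. None of the 10 genes is particular to fat: CD34 is also carried by endothelium, PDGFRB by pericytes, THY1 by T cells and neurons, ICAM1 by activated endothelium and leukocytes, and DPP4 by many epithelia.

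The libraries held 14783728 fragments for KO and 13705193 fragments for WT, recovered from the deposited FPKM values (fragments scaled by gene length in kilobases and by a library size). Trappc9 itself stood at 12.6 FPKM in the library labelled KO and 9.94 FPKM in the library labelled WT, so its level does not bear out the KO label, and every direction below is between libraries named by their labels. Epithelial genes of the epididymis were abundant in both, with 12 listed genes summing to 30821 FPKM in KO and 22593 FPKM in WT. The 8 listed adipocyte genes summed to 41.8 FPKM in KO and 42.9 FPKM in WT. Adipoq, the adiponectin gene, was at 0.51 FPKM in KO and 2.30 FPKM in WT, and the leptin gene Lep at 0.08 FPKM in KO and 0.06 FPKM in WT. Most of the sum was Pnpla2, a triglyceride lipase gene used by many tissues, at 31.0 FPKM in KO and 27.4 FPKM in WT. In a mixed tissue like this, fewer cells of a type and less RNA per cell cannot be told apart.

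All 10 markers were detected in both libraries, between 2.69 FPKM and 30.7 FPKM in KO and between 3.19 FPKM and 52.6 FPKM in WT, and all passed the filter of a mean of at least 1 FPKM. The largest difference was in Cd34, which was 48.0% lower in the library labelled KO. Pi16 followed, 33.2% lower, and the other 8 markers differed by 17% or less in either direction under the deposited scaling. The early progenitor set did not move as a block: Pi16 and Cd55 were lower in KO, whereas Dpp4 and Anxa3 were higher under the deposited scaling and within counting error of WT after rescaling to TPM. In the committed set, Icam1 was higher under the deposited scaling and within counting error of WT after rescaling to TPM. Ggt5 was within counting error under the deposited scaling and lower after rescaling to TPM.

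A ratio is called beyond counting error where its 95% interval, an exact Clopper-Pearson interval on the fragment counts, excluded 1. These intervals cover counting error only and leave out differences between animals and preparations. By this rule 3 of the 10 markers were higher in KO and 5 were lower. Of all 13084 tested protein-coding genes, the genes averaging 1 FPKM or more, 24.6% were higher in KO and 17.6% were lower by the same rule. Among the 8682 tested genes with as many fragments as the markers, 27.1% were higher and 17.3% were lower. The 3 higher markers are thus close to the background share, and the 5 lower ones are above it. No marker reached a 2-fold difference, where 0.948% of the tested genes were at least 2-fold higher in KO and 0.29% at least 2-fold lower.

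These counts depend on how the libraries are scaled to each other. The deposited values carry a scaling that leaves the median log2 ratio of all tested genes at 0.02, the ratio being log2((KO + 1)/(WT + 1)). Its pseudocount, 1 FPKM, makes changes of low genes look smaller than they are. Rescaling to TPM, which gives the libraries equal sums, moved that median by -0.19. On that scale 0 markers were higher in KO and 6 were lower beyond counting error, against 7.88% and 48.4% of all tested genes. Relative to the median of all tested genes, each marker kept its direction both on the deposited scale and on the TPM scale.

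**Figure D1:**
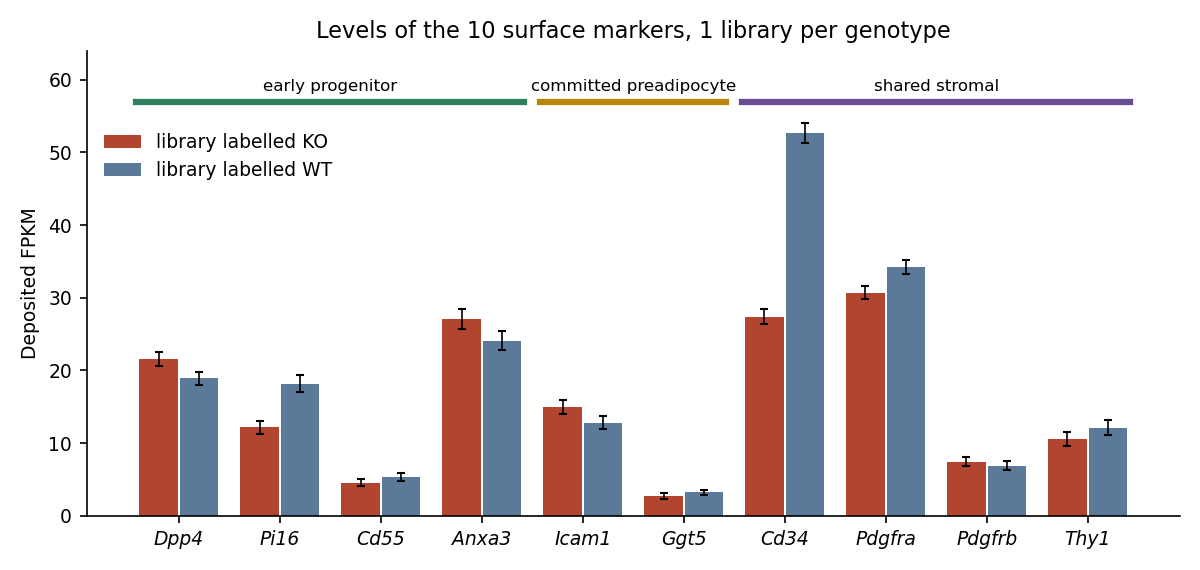
Deposited FPKM (vertical axis) of each marker in the library labelled KO (left bars) and the library labelled WT (right bars), grouped by the state each marks. Error bars are exact 95% Poisson intervals of the fragment count, counting error only. Cd34 stands at 27.4 FPKM in KO and 52.6 FPKM in WT, the widest gap.

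Among the early progenitor markers, Dpp4 encodes a membrane peptidase that trims dipeptides from peptide hormones and chemokines. It stood at 21.5 FPKM in KO, from 1946 fragments, and at 18.9 FPKM in WT, from 1693 fragments. The KO over WT ratio was 1.14 (counting interval 1.07 to 1.22). After rescaling to TPM the ratio was 0.989 (0.926 to 1.06), so whether Dpp4 was higher depends on the scaling.

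Pi16, which encodes a secreted or membrane-tethered protein of the CAP superfamily, was the early marker with the widest gap. It stood at 12.2 FPKM in KO, from 693 fragments, and at 18.2 FPKM in WT, from 1027 fragments, a ratio of 0.668 (0.606 to 0.736). It was lower under every scaling tried, at 0.581 after rescaling to TPM. Its log2 ratio ranked 347 from the lowest among 13084 tested genes. In WT the levels of Pi16 and Dpp4 were within each other's counting intervals, whereas in KO Pi16 stood at 0.564 times the level of Dpp4.

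Cd55 encodes decay accelerating factor, a membrane protein that disarms complement convertases. It stood at 4.52 FPKM in KO and 5.35 FPKM in WT, from 314 and 368 fragments, a ratio of 0.845 (0.724 to 0.985), lower beyond counting error by a narrow margin. Mice carry a neighbouring copy, Cd55b, at 1.00 FPKM in KO and 1.69 FPKM in WT. Of the distinct stretches of 50 bases in Cd55 transcripts, 8.0% also occur in Cd55b transcripts, so a small part of the Cd55 value could be shared between the copies.

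Anxa3 encodes an annexin, a protein that binds membrane phospholipids in the presence of calcium. It stood at 27.0 FPKM in KO, from 1409 fragments, and at 24.1 FPKM in WT, from 1242 fragments. The ratio was 1.12 (1.04 to 1.21), close to that of Dpp4, and 0.976 (0.904 to 1.05) after rescaling to TPM. For both Anxa3 and Dpp4 the log2 ratio was above 0 on the deposited scale, over fragment totals (0.070 and 0.087) and on the TPM scale relative to the median of all tested genes (0.13 and 0.15), and below 0 on the TPM scale itself.

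Of the committed preadipocyte markers, Icam1 encodes an adhesion molecule bound by leukocyte integrins. It stood at 15 FPKM in KO, from 934 fragments, and at 12.8 FPKM in WT, from 791 fragments, a ratio of 1.17 (1.06 to 1.29). That was the highest ratio of the 10 markers, and its log2 ratio ranked 2315 from the highest among all tested genes. After rescaling to TPM the Icam1 ratio was 1.02 (0.924 to 1.12), no longer beyond counting error.

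Ggt5 encodes a membrane gamma-glutamyltransferase that converts leukotriene C4 to D4. It was the lowest of the 10 markers, at 2.69 FPKM in KO and 3.19 FPKM in WT, from 228 and 268 fragments. Its ratio of 0.842 had an interval of 0.703 to 1.01, which includes no change by a narrow margin; relative to the median of all tested genes and after rescaling to TPM it was lower beyond counting error. The committed set therefore holds a marker on each side of the background median of 0.02.

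Cd34, in the shared stromal set, encodes a heavily glycosylated sialomucin of progenitor, endothelial and stromal cells. It stood at 27.4 FPKM in KO, from 2855 fragments, and at 52.6 FPKM in WT, from 5434 fragments, a ratio of 0.520 (0.497 to 0.544). Its log2 ratio ranked 54 from the lowest among 13084 tested genes. On the log2 scale with the pseudocount the difference was -0.92, just short of 2-fold; it reached -1.13 after rescaling to TPM and -1.01 with each library divided by its own fragment total, past 2-fold in both. In WT Cd34 was the most abundant of the 10 markers, 1.54 times the level of Pdgfra, and in KO it was second, at 0.892 times the level of Pdgfra.

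Pdgfra and Pdgfrb encode the tyrosine kinase receptors for platelet-derived growth factors. Pdgfra, the customary marker of fat fibroblasts, stood at 30.7 FPKM in KO, from 4402 fragments, and at 34.2 FPKM in WT, from 4860 fragments, a ratio of 0.897 (0.861 to 0.934). Pdgfrb stood at 7.44 FPKM in KO and 6.87 FPKM in WT, a ratio of 1.08 (0.961 to 1.22), within counting error. The receptors thus lay on opposite sides of no change on the deposited scale, and both below it after rescaling to TPM, at 0.78 for Pdgfra and 0.941 for Pdgfrb.

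Thy1 encodes a small surface glycoprotein held by a lipid anchor, known as CD90. It stood at 10.6 FPKM in KO and 12.1 FPKM in WT, from 452 and 514 fragments, a ratio of 0.871 (0.766 to 0.990). Markers of T cells, which also carry THY1 in mice, were near 0: the 9 listed genes summed to 2.39 FPKM in KO and 1.98 FPKM in WT, and none passed the filter on low values. Cd3e was at 0.22 FPKM in KO and 0.17 FPKM in WT.

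**Figure D2:**
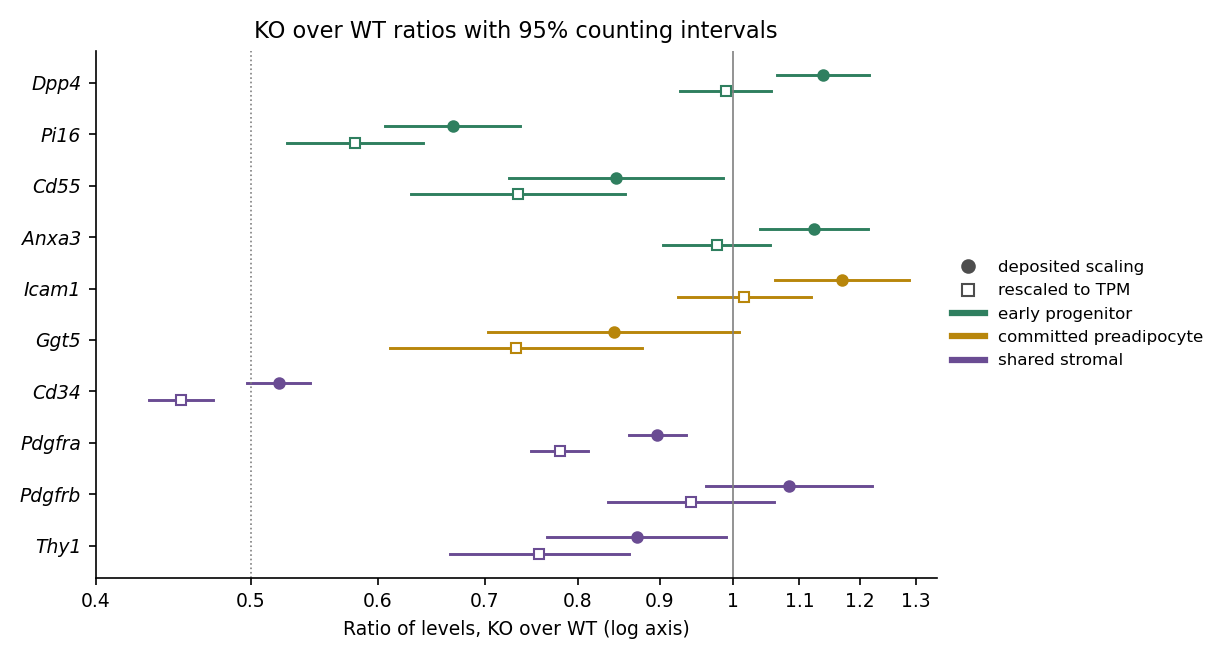
KO over WT ratio of each marker (horizontal log axis) under the deposited scaling (filled circles) and after rescaling to TPM (open squares), with 95% counting intervals as lines and colours for the 3 sets. Cd34 and Pi16 lie lowest under either scaling, while Dpp4, Anxa3 and Icam1 are above 1 on the deposited scale and have intervals that include 1 after rescaling.

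The median log2 ratio was -0.02 for the 4 early progenitor markers and 0.01 for the 2 committed preadipocyte markers, beside 0.02 for all tested genes. The early markers summed to 65.2 FPKM in KO and 66.5 FPKM in WT, and the committed markers to 17.7 FPKM in KO and 16 FPKM in WT. The quotient of committed over early sums was 0.271 in KO and 0.241 in WT, a measure that does not depend on the scaling between libraries. That quotient rested on Icam1 and on which early marker it is set against: Icam1 over Dpp4 was 0.696 in KO and 0.677 in WT, whereas Icam1 over Pi16 was 1.23 in KO and 0.704 in WT. The medians of the early and committed sets lay closer together than the markers within either set, whose log2 ratios ran from -0.54 to 0.18 and from -0.18 to 0.21.

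The 4 shared stromal markers had a median log2 ratio of -0.17 and summed to 76.1 FPKM in KO and 106 FPKM in WT. Most of that gap was Cd34. Without it, a choice made after its value was seen, the other 3 summed to 48.7 FPKM in KO and 53.2 FPKM in WT, and all 9 other markers of the panel summed to 132 FPKM in KO and 136 FPKM in WT.

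**Figure D3:**
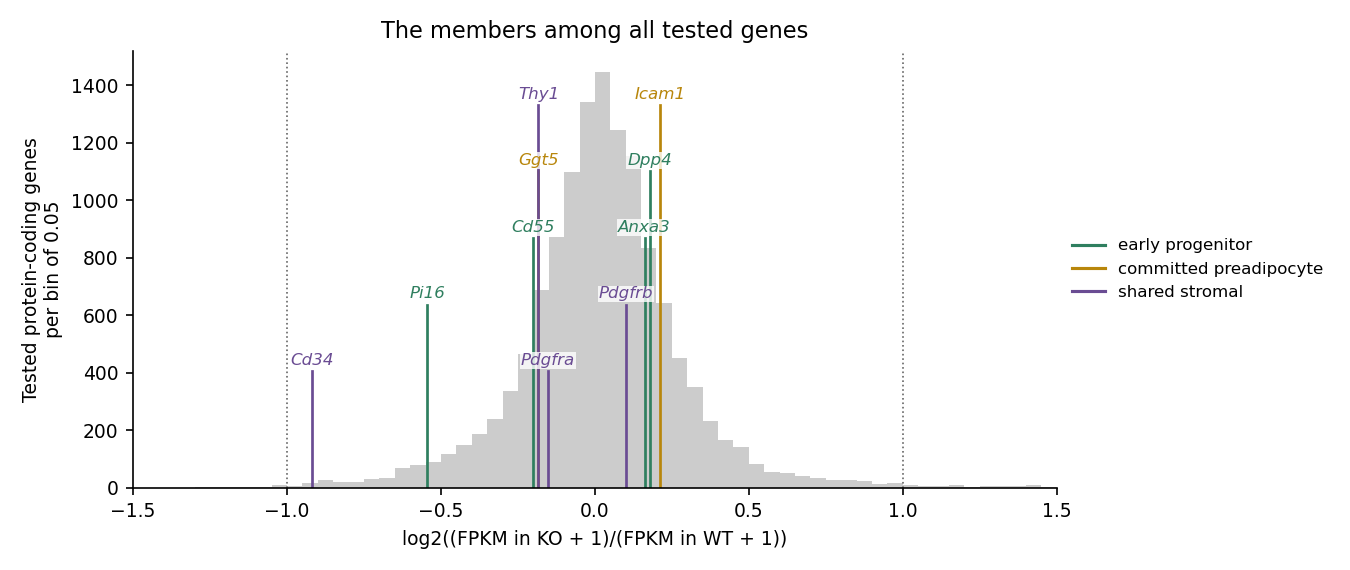
Histogram of log2((KO + 1)/(WT + 1)) on the deposited scale over the tested protein-coding genes (grey, bins of 0.05), with each marker drawn as a coloured line at its own value. Line heights are staggered for legibility only, and dotted lines mark 2-fold. Cd34 at -0.92 and Pi16 at -0.54 lie outside the middle 90% of genes, which runs from -0.41 to 0.44, and the other 8 markers lie within it.

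The order of levels within a library also differed in places. From high to low it was Pdgfra, Cd34, Anxa3, Dpp4, Icam1, Pi16, Thy1, Pdgfrb, Cd55 and Ggt5 in KO. In WT it was Cd34, Pdgfra, Anxa3, Dpp4, Pi16, Icam1, Thy1, Pdgfrb, Cd55 and Ggt5. Neighbours whose counting intervals overlapped were Cd34 with Anxa3 and Pi16 with Thy1 in KO, and Dpp4 with Pi16 and Icam1 with Thy1 in WT. Both changes of place, Cd34 below Pdgfra and Pi16 below Icam1 in KO, were between neighbours that counting error separates in each library. Both depend on the gene length used. Divided by the longest coding transcript, Cd34 leads in both libraries. Icam1 then stands above Pi16 in both, at 25.8 against 12.1 FPKM in KO and 22.0 against 18.2 FPKM in WT.

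Levels of different genes are compared per kilobase, and for 9 of the 10 markers the table's length equals that of all annotated exons in GENCODE M21 joined. For Cd34 that length was 7290 bases, 2.85 times its longest coding transcript of 2554 bases, and for Anxa3 it was 2.28 times. Divided by the longest coding transcript in GENCODE M21, a choice made after the values were seen, Cd34 would be at 78.1 FPKM in KO and 150 FPKM in WT and would lead in both libraries. Anxa3 would be second, at 61.8 FPKM in KO and 55.0 FPKM in WT, followed by Pdgfra. For Pdgfrb and Pi16 the choice hardly matters, with quotients of 1.01 and 0.998. The KO over WT ratio of a gene does not depend on its length.

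**Figure D4:**
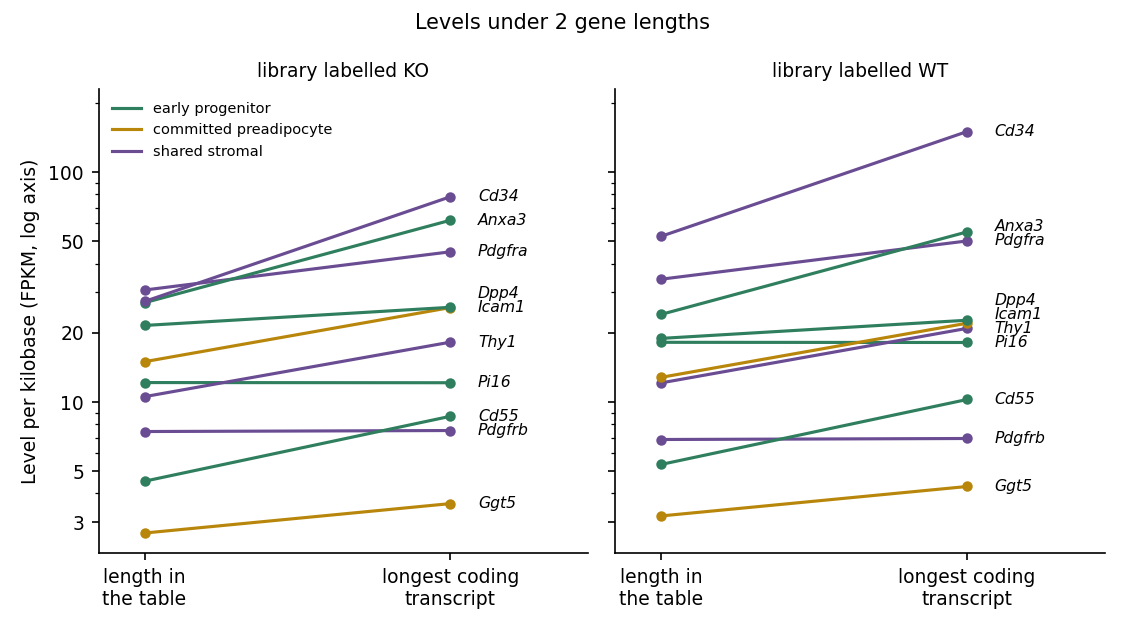
Level of each marker per kilobase (vertical log axis, FPKM) with the table's gene length and with the longest coding transcript, in the library labelled KO (left panel) and the library labelled WT (right panel). Lines that rise most are genes whose annotated exons extend furthest beyond that transcript, led by Cd34, and the order of the genes is then the same in both panels.

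The start regions of Cd34 and Pi16, the markers with the lowest ratios, and of Icam1 and Dpp4, those with the highest, are shown for comparison. Each is the 250 bases before the annotated start (RefSeq, GRCm38.p6, the assembly also called mm10), 5′ to 3′ on the gene's strand. Capitals mark matches on either strand to short motifs. GGAAATTCC is a binding sequence of the transcription factor NF-kB. TATAAA is the core of a TATA box, which positions the start of transcription. GGGCGG is a GC box, bound by factors of the SP family. TGANTCA, an AP-1 site, was searched for as well, and no match overlapped another.
Cd34, chr1:194938571-194938820, plus strand: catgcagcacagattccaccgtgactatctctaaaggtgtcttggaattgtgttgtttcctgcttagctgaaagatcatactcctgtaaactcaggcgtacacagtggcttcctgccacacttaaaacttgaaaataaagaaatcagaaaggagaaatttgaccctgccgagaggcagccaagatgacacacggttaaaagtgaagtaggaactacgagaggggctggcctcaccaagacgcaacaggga
Pi16, chr17:29318632-29318881, plus strand: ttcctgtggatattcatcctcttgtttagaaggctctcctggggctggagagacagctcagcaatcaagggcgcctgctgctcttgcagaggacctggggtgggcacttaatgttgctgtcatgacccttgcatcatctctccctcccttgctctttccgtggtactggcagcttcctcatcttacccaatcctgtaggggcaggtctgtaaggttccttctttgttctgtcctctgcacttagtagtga
Icam1, chr9:21015690-21015939, plus strand: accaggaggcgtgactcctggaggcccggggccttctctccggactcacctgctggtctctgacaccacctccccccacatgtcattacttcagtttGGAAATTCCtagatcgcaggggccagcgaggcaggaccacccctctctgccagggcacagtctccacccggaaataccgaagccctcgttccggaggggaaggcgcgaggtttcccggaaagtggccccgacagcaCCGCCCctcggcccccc
Dpp4, chr2:62412232-62412481, minus strand: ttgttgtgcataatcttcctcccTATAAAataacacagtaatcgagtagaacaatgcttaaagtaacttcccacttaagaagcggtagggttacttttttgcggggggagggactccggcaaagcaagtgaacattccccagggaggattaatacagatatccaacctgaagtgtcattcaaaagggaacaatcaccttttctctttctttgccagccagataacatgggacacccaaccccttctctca

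The Icam1 window holds GGAAATTCC from 153 to 145 bases before the start, a match found in 0.289% of 32544 start regions of the same length. It also holds a GC box, which 33% of all regions hold. The Dpp4 window holds TATAAA, found in 12.3% of regions, from 227 to 222 bases before the start. The windows of Cd34 and Pi16 hold none of the 4 motifs, TGANTCA, found in 6.73% of regions, included. The Cd55 window, not shown, holds GC boxes from 77 to 72 and from 7 to 2 bases before the start. The Pdgfra window, not shown either, holds none of the motifs. Cd55 and Pdgfra were also lower in KO. The Icam1 window is 65.2% G and C with 15 CpG pairs, and the Dpp4 window is 43.6% with 4, against medians of 52.4% and 6. The Cd34 window is 46.4% with 6, and the Pi16 window is 52.4% with 2. The motifs were chosen after the sequences were seen, and a match is a description of letters, not of binding.

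Antisense or overlapping genes lie on exons of 7 of the 10 markers. TruSeq RNA libraries were made, and no label says whether counting used the strand, so reads of overlapping genes cannot be told apart. The overlap takes 11.7% of the exon bases of Icam1 and 6.5% of those of Pdgfra, and is smaller for the others. Gm16897, antisense to Cd34, was at 0.9 FPKM in KO, from 32 fragments, and 1.93 FPKM in WT, from 68 fragments, far below the 2855 and 5434 fragments of Cd34. None of the other overlapping genes in the table passed 8 fragments in either library.

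Wider marker lists of the same states were described beside the panel. Other early progenitor markers were mostly lower in KO: of 16 that passed the filter, 12 were lower and 3 higher beyond counting error, against 17.6% and 24.6% of all tested genes, with a median log2 ratio of -0.25. The count of lower genes was also 12 after rescaling to TPM, where 48.4% of all tested genes were lower. Relative to the median of all tested genes it was 12, beside 20.1% of all tested genes. Cd248, the endosialin gene, stood at 19.4 FPKM in KO and 32.3 FPKM in WT, and the fibrillin gene Fbn1 at 27.1 FPKM in KO and 38.8 FPKM in WT. Uchl1, a deubiquitinase gene at 6.47 FPKM in KO and 3.59 FPKM in WT, and Ly6c1, a surface antigen gene at 42.4 FPKM in KO and 28.1 FPKM in WT, were higher. The remaining higher gene was Ly6a, at 78.9 FPKM in KO and 67.5 FPKM in WT. Uchl1 is also a gene of neurons, and Ly6c1 one of endothelium. The part of other cell types in the higher or the lower genes was not tested.

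Of 16 other committed preadipocyte markers, all of which passed the filter, 7 were lower and 3 higher beyond counting error, or 43.8% and 18.8% beside 17.6% and 24.6% of all tested genes, with a median of -0.12. The share of higher ones was close to the background. Dlk1, a surface protein that restrains fat differentiation, stood at 4.35 FPKM in KO and 8.80 FPKM in WT. Lipoprotein lipase, Lpl, was at 6.37 FPKM in KO and 9.96 FPKM in WT. The collagen gene Col15a1 was at 22.4 FPKM in KO and 32.1 FPKM in WT. Apoe, the apolipoprotein E gene, which macrophages also express strongly, went the other way at 581 FPKM in KO and 447 FPKM in WT. Joined with the panel, 14 of 20 early markers and 7 of 18 committed markers were lower in KO beyond counting error, and 5 and 4 were higher. After rescaling to TPM the lower counts were 14 and 12, on a scale where 48.4% of all tested genes were lower.

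CD142+ stromal cells, which restrain fat differentiation in mice, are a further class of this lineage. Their 8 listed markers had a median log2 ratio of 0.01 on the deposited scale and -0.17 on the TPM scale. The medians of all tested genes were 0.02 and -0.17. On the deposited scale 2 were lower and 1 higher beyond counting error, beside 17.6% and 24.6% of all tested genes. On the TPM scale 4 were lower and 1 higher, beside 48.4% and 7.88%. F3, which encodes CD142, was at 15.8 FPKM in KO and 15.5 FPKM in WT. Gdf10 was at 13.9 FPKM in KO and 13.8 FPKM in WT. Abcg1, a cholesterol exporter gene, was at 5.09 FPKM in KO and 3.46 FPKM in WT.

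Beside Cd34, genes shared by fibroblasts went both ways, with more of them lower in KO. Of 14 listed stromal genes that passed the filter, 8 were lower, 2 higher and 4 within counting error, with a median log2 ratio of -0.10. The lower ones made up 57.1% of the list, beside 17.6% of all tested genes, and the sum was 1395 FPKM in KO and 1810 FPKM in WT. Fibulin 2, Fbln2, was at 16 FPKM in KO and 29.5 FPKM in WT. The collagen gene Col3a1 was at 312 FPKM in KO and 481 FPKM in WT. Nt5e, which encodes the stromal surface enzyme CD73, was the opposite case at 10.1 FPKM in KO and 6.49 FPKM in WT. In KO all 10 listed cell cycle genes stood lower beyond counting error, with Tpx2 at 3.39 FPKM in KO and 8.03 FPKM in WT. The part of matrix or cycling cells in the difference of Cd34 was not tested.

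Of 13 markers of endothelium, which also carries CD34, 7 were higher and 1 lower beyond counting error on the deposited scale, where 24.6% and 17.6% of all tested genes were. On the TPM scale 2 were higher and 2 lower, beside 7.88% and 48.4%. The list had a median of 0.18 on the deposited scale and 0.02 on the TPM scale, and its summed level was 101 FPKM in KO and 85.9 FPKM in WT. Pecam1, which encodes CD31, was at 9.50 FPKM in KO and 7.45 FPKM in WT, whereas Tek, an angiopoietin receptor gene, was lower at 3.99 FPKM in KO and 5.06 FPKM in WT. The part of endothelial cells in the difference of Cd34 was not tested. Of the related sialomucin genes, Podxl was at 12.0 FPKM in KO and 11.5 FPKM in WT, and Podxl2 at 2.01 FPKM in KO and 2.31 FPKM in WT, both within counting error on the deposited scale. After rescaling to TPM, Podxl and Podxl2 were lower beyond counting error.

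Markers of pericytes and smooth muscle, beside Pdgfrb, went both ways, with a median of 0.06 on the deposited scale and -0.10 on the TPM scale. Of 12, 4 were higher and 5 lower on the deposited scale, beside 24.6% and 17.6% of all tested genes. After rescaling to TPM 2 were higher and 5 lower, beside 7.88% and 48.4%. Rgs5, a pericyte gene, was at 20.7 FPKM in KO and 14.5 FPKM in WT, whereas Cspg4, which encodes NG2, was at 2.58 FPKM in KO and 3.16 FPKM in WT. Leukocyte genes, beside Icam1, had 3 higher and 0 lower of 8 on the deposited scale, where 24.6% and 17.6% of all tested genes were. On the TPM scale 2 were higher and 1 lower, beside 7.88% and 48.4%. Ptprc, which encodes CD45, was at 1.06 FPKM in KO and 1.12 FPKM in WT, and Cd52 was at 243 FPKM in KO and 165 FPKM in WT. Cd52 is also strongly expressed by the epididymis. Mesothelial genes, of lining cells of visceral fat, had 4 lower and 2 higher of 6 that passed, beside 17.6% and 24.6% of all tested genes. After rescaling to TPM 5 were lower and 1 higher, beside 48.4% and 7.88%. Upk3b was at 10.8 FPKM in KO and 23.0 FPKM in WT.

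Beside Dpp4 and Anxa3, which epithelia also express, 10 of the 12 listed epididymal genes were higher in KO beyond counting error, against 24.6% of all tested genes. After rescaling to TPM 9 were higher, against 7.88% of all tested genes. The list had a median of 0.44 on the deposited scale and 0.24 on the TPM scale. Lcn9 had the highest KO over WT ratio of the 12, at 2154 FPKM in KO and 646 FPKM in WT, whereas Epcam, a general epithelial gene, was at 216 FPKM in KO and 226 FPKM in WT. With both libraries scaled to equal sums without these 12 genes, an alternative chosen after the data were seen, the log2 ratio was 0.0050 for Dpp4 and -0.013 for Anxa3. The median of all tested genes was -0.135 under that scaling, so both markers lay above it. The part of epididymal cells in the values of Dpp4 and Anxa3 was not tested.

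**Figure D5:**
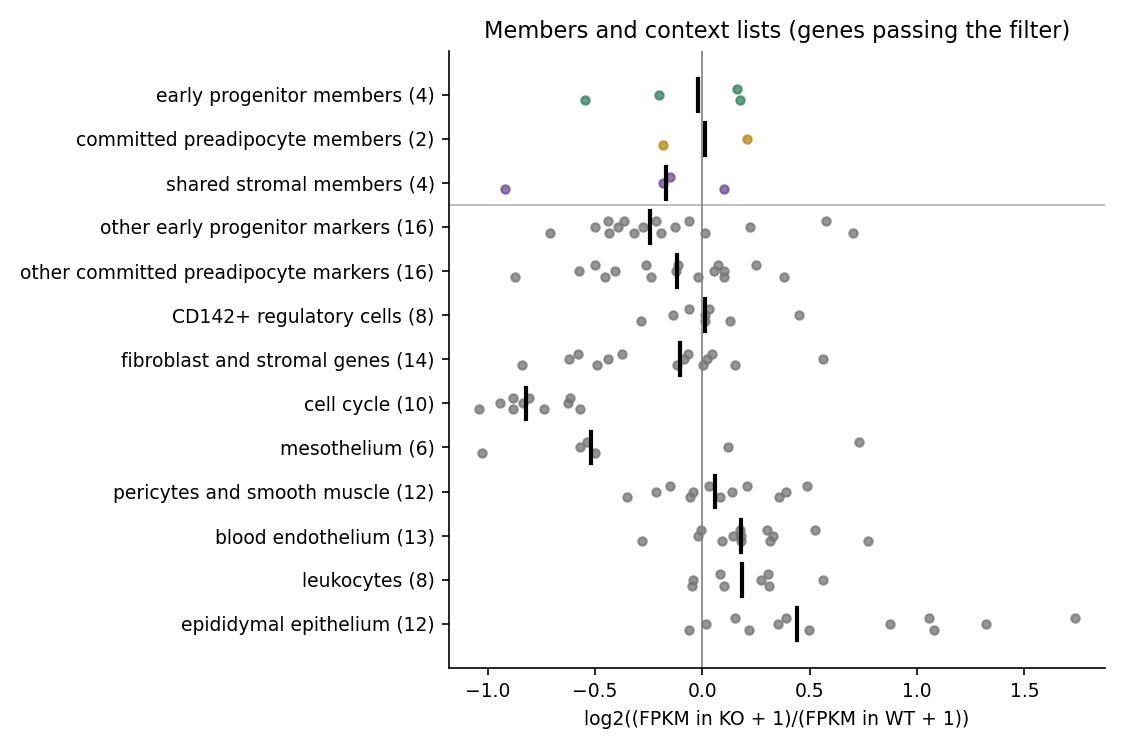
log2((KO + 1)/(WT + 1)) on the deposited scale (horizontal axis) of the markers by set (coloured points, top 3 rows) and of genes in the context lists that passed the filter (grey points), with the number of genes in brackets and the median of each row as a black bar. Cell cycle genes lie furthest left with a median of -0.82, other early progenitor markers lie at -0.25, and epididymal genes lie furthest right at 0.44.

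Ligands of the PDGF receptors went both ways. Pdgfa, the main ligand of PDGFRA, was at 9.32 FPKM in KO and 11.8 FPKM in WT, lower beyond counting error. Pdgfd, a ligand of PDGFRB, was at 7.51 FPKM in KO and 6.18 FPKM in WT, higher on the deposited scale. Pdgfb was at 8.32 FPKM in KO and 8.67 FPKM in WT, and Pdgfc at 4.97 FPKM in KO and 5.41 FPKM in WT, both within counting error. After rescaling to TPM, 3 of the 4 ligands were lower and 0 higher, on a scale where 48.4% of all tested genes were lower and 7.88% higher.

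Relatives of the other markers gave a mixed picture. In the dipeptidyl peptidase family Dpp4 was the most abundant; Fap, a fibroblast activation protein, was at 1.1 FPKM in KO and 1.06 FPKM in WT, and Dpp8 at 9.77 FPKM in KO and 9.62 FPKM in WT. Other complement regulators included Cr1l, at 8.17 FPKM in KO and 6.95 FPKM in WT, and Cd59a, at 12.4 FPKM in KO and 12.3 FPKM in WT, so Cd55 was not the leading one. Ggt1, the widely expressed gamma-glutamyltransferase of epithelia, stood well above Ggt5, at 49.1 FPKM in KO and 30.6 FPKM in WT. Among 10 annexins that passed the filter, 5 were higher and 1 lower on the deposited scale, beside 24.6% and 17.6% of all tested genes. On the TPM scale 2 were higher and 4 lower, beside 7.88% and 48.4%, so the share of lower annexins was close to the background. Anxa3 itself is among these annexins. Anxa1 was at 67.5 FPKM in KO and 55.2 FPKM in WT.

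Integrin chains that bind ICAM1 were low. Itgb2, their common chain, was at 4.76 FPKM in KO and 3.91 FPKM in WT, and Itgal at 0.88 FPKM in KO and 0.9 FPKM in WT. Icam2, an endothelial relative of Icam1, was at 2.68 FPKM in KO and 3.15 FPKM in WT, within counting error. Among 11 CAP family relatives that passed the filter, Pi16 included, Pi15 was lower like Pi16, at 5.67 FPKM in KO and 7.39 FPKM in WT, while the epididymal gene Crisp4 was at 53.5 FPKM in KO and 19.1 FPKM in WT. Among genes for partners of THY1, Itgav was at 12.9 FPKM in KO and 13.4 FPKM in WT, and Adgre5, which encodes CD97, was at 41.7 FPKM in KO and 37.9 FPKM in WT.

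By position in the table's build, Cd34 (ENSMUSG00000016494) lies on chromosome 1 from 194938819 to 194961279 on the plus strand, with 8 exons in its longest coding transcript. Cd55 (ENSMUSG00000026399) lies on the same chromosome from 130439027 to 130462744 on the minus strand. Pi16 (ENSMUSG00000024011) lies on chromosome 17 from 29318877 to 29329413, Dpp4 (ENSMUSG00000035000) on chromosome 2 from 62330073 to 62412231, and Icam1 (ENSMUSG00000037405) on chromosome 9 from 21015985 to 21028817. Thy1 (ENSMUSG00000032011) is also on chromosome 9, from 44043384 to 44048579. Pdgfra (ENSMUSG00000029231), from 75152292 to 75198215, and Anxa3 (ENSMUSG00000029484), from 96793339 to 96845966, are on chromosome 5. Ggt5 (ENSMUSG00000006344) lies on chromosome 10 from 75589340 to 75617200 and Pdgfrb (ENSMUSG00000024620) on chromosome 18 from 61045150 to 61085061. For 9 of the 10 markers the table's position is that of GENCODE M21; for Pi16 the table gives a length of 3987 bases and that release 6364.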

How the data were processed

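The authors' deposited table holds FPKM values per gene for 1 library of each genotype, with gene length, position and biotype. Alignment with HISAT2 (2.0.5) and the builds hg38 and mm10 are named per the submitters' processing notes; no source used here names the counting program. Positions were compared with GENCODE M21 (GRCm38). Deposited gene lengths are in bases.

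FPKM multiplied by length came in whole steps for 100% of values above 0 (within 0.01 of a fragment), which gave fragments per gene. Clopper-Pearson intervals on the KO share of these fragments (scipy 1.17.1, Python 3.11.15) were tested on simulated data. The intervals cover counting error only. No label mentions molecular identifiers, so duplicate reads of a molecule could count as separate fragments, and the intervals may be too narrow.

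Tested genes were protein-coding with a mean of at least 1 FPKM. A symbol found on several lines was read from the line with the higher mean. The members and the 21 context lists were chosen with earlier results of these data known. Named genes are the 10 members, up to 4 measured genes of each list with the largest log2 ratios in size, and relatives of the members whose role is told; a few defining markers, named by cell type, came from a fixed list. Not all genes so picked are named. Alternatives were other pseudocounts, scalings, filters and biotypes.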

Additional observations from a re-analysis of the deposited data

How the results depend on the processing

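No paired analysis was possible because each genotype has 1 library; for the same reason no library could be left out. After rescaling to TPM the log2 ratio of Dpp4 was -0.015 and that of Anxa3 -0.034; scaled to equal sums without the listed epididymal genes, Anxa3 was at -0.013 and Dpp4 at 0.0050. Both were above 0 over fragment totals, at 0.087 for Dpp4 and 0.070 for Anxa3, and relative to the median of all tested genes, at 0.16 and 0.14 on the deposited scale and 0.15 and 0.13 on the TPM scale. Medians of the early, committed and shared sets were -0.23, -0.19 and -0.37 after rescaling to TPM, beside -0.17 for all tested genes. With equal sums without the epididymal genes they were -0.18, -0.14 and -0.34, beside -0.135 for all tested genes. With a minimum mean of 5 FPKM, Cd55 and Ggt5 left the panel and the early median was 0.16. Under TPM, each library's own fragment total and equal sums without epididymal genes alike, 1 marker, Cd34, was past 2-fold lower. In that order, 1.41%, 0.375% and 0.611% of all tested genes were at least 2-fold lower. Under each of these scalings 0 markers were higher and 6 were lower beyond counting error. Of all tested genes, 7.88%, 14.5% and 8.75% were higher, and 48.4%, 30.3% and 45.1% were lower. Among all tested genes the counts higher and lower in KO beyond counting error were 1031 and 6337 after rescaling to TPM, 1900 and 3969 with fragment totals, and 3220 and 2297 on the deposited scale. With equal sums without the epididymal genes these counts were 1145 and 5896. Pi16, Cd34, Pdgfra and Thy1 had log2 ratios below 0 under all 10 alternatives, and Cd55 and Ggt5 under the 9 that gave them a value. Depth limits Ggt5 and Cd55 most, with 228 and 314 fragments in KO.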
